A study of Mus musculus with 11 samples.

Results

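Lysophosphatidic acid (LPA) and sphingosine-1-phosphate (S1P) are small signalling lipids that act outside the cell on G-protein-coupled receptors. Autotaxin, the secreted enzyme encoded by Enpp2, makes LPA, whereas the lipid phosphate phosphatases encoded by Plpp1, Plpp2 and Plpp3 sit in the membrane and remove the phosphate from LPA, S1P and related lipids, thereby ending the signal. Both lipids are known to act on migration, proliferation and differentiation of cells of the osteoblast lineage. The 10 genes described here are these 3 phosphatases, autotaxin, the LPA receptors Lpar1, Lpar4 and Lpar6 and the S1P receptors S1pr1, S1pr2 and S1pr3, out of 28222 genes in the count table. They were chosen from these gene families around Plpp3, and not all genes of the families are among them. The choice was made with earlier results of these data known, so that the p-values given below are not from a blind choice of genes. Plpp3 was itself selected on its difference between old and young cells of batch B. That comparison is therefore given as a description of the members, without a test.

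Polyadenylated RNA of cultured bone-derived mesenchymal stem cells (MSCs) from mice was sequenced in 11 libraries, to compare cells of young and old animals. The groups were A young (n = 4) and B young (n = 2), both from mice of 3 to 5 months, and B old (n = 2) and C old (n = 3), both from mice of 18 to 22 months, where A, B and C are the batches named in the sample labels. All cells were grown at 2% O2, carried no stated genetic change and received no stated treatment. The study's methods, which describe an oxygen comparison, give C57BL/6N mice and MSCs from hind limb bones. These were sorted as CD45-, Ter-119-, Sca-1+ and CD140a+ after a first culture and then expanded. The same preparation was assumed for these libraries, although transcripts of haematopoietic cells were present in them, as given below. Only batch B holds both ages. The labels do not state that replicates came from separate animals, so that p-values measure the spread between these libraries, which may be technical.

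Libraries held between 11969336 and 20315934 counts. Levels are given as CPM, counts scaled to a common library size with TMM factors, which correct for the composition of each library. The MSC markers used for the sort were present throughout, with Ly6a (Sca-1) between 270.1 and 778 CPM and Pdgfra (CD140a) between 109 and 289 CPM. Of the endothelial markers, Pecam1 and Cdh5 reached at most 10 counts in any library, whereas Tek had 16 to 135 and Egfl7 25 to 60 counts. The 8 erythroid markers summed to at most 0.244 CPM in A young, 0.938 and 3.47 CPM in B young, 3.91 and 2.27 CPM in B old, and 0.412 to 0.653 CPM in C old. Haematopoietic markers differed between batches, as their 15 genes summed to 698 to 1513 CPM in A young, 400 and 813 CPM in B young, 808 and 1166 CPM in B old, and 136 to 162 CPM in C old. The replicates of B young stood further apart than those of any other group, and the collagen gene Col1a1 was at 42632 CPM in replicate 1 and at 23940 CPM in replicate 2, against 22244 and 23429 CPM in B old. The 9 other MSC markers summed to 3626 and 3417 CPM in B young and to 3190 and 3115 CPM in B old. In bulk RNA, fewer cells of a type and less RNA per cell cannot be told apart.

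The 3 phosphatases share a catalytic core. The stretches below show the part of each coding sequence that encodes the last of the signature motifs of this enzyme family, which holds the catalytic histidine, because it is the feature that makes Plpp1, Plpp2 and Plpp3 copies of one activity. Bases in capitals are shared by all 3 genes, which is the case for 23 of 36 bases. Sequences are from GENCODE transcripts on GRCm38.
Plpp1, chr13:112866892-112866927, plus strand: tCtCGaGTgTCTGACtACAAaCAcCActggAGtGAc
Plpp2, chr10:79527495-79527530, minus strand: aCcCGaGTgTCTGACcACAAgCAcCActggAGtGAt
Plpp3, chr4:105219424-105219459, plus strand: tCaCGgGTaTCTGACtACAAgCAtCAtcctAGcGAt

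Over the whole protein, the phosphatases were 46.5% (Plpp1 and Plpp3) to 52.9% (Plpp1 and Plpp2) identical in residues. Their genes each have 6 coding exons and encode 284, 276 and 312 residues for Plpp1, Plpp2 and Plpp3. The receptors fell into 2 groups by the same measure. S1pr1, S1pr2 and S1pr3 were 45.6% to 53.6% identical to each other and 35.0% to 39.2% identical to Lpar1. Lpar4 and Lpar6 were 54.1% identical to each other, but only 23.3% and 23.6% identical to Lpar1. Lpar4, Lpar6 and the 3 S1P receptors each have 1 coding exon.

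Plpp3 (ENSMUSG00000028517, GRCm38 chromosome 4, 105157347 to 105232764, plus strand) was selected on its difference between ages in batch B. Its level was 507 and 424 CPM in B young and 168 and 200 CPM in B old. It was 397, 466, 342 and 383 CPM in A young and 633, 627 and 673 CPM in C old. Thus, the libraries of B old were the lowest of all 11 and those of C old the highest, and neither group overlapped with any other. In batch B, Plpp3 was lower in old cells by a log2 fold change of -1.34 (SE 0.15, from a model of all 11 libraries that also held a batch term), which is 0.395 of the young level. When batch was left out of the fit, so that C old counted as old beside B old, the log2 fold change was 0.15. With the batch term, the value lay between -1.21 and -1.47 when each library was left out in turn.

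**Figure D1:**
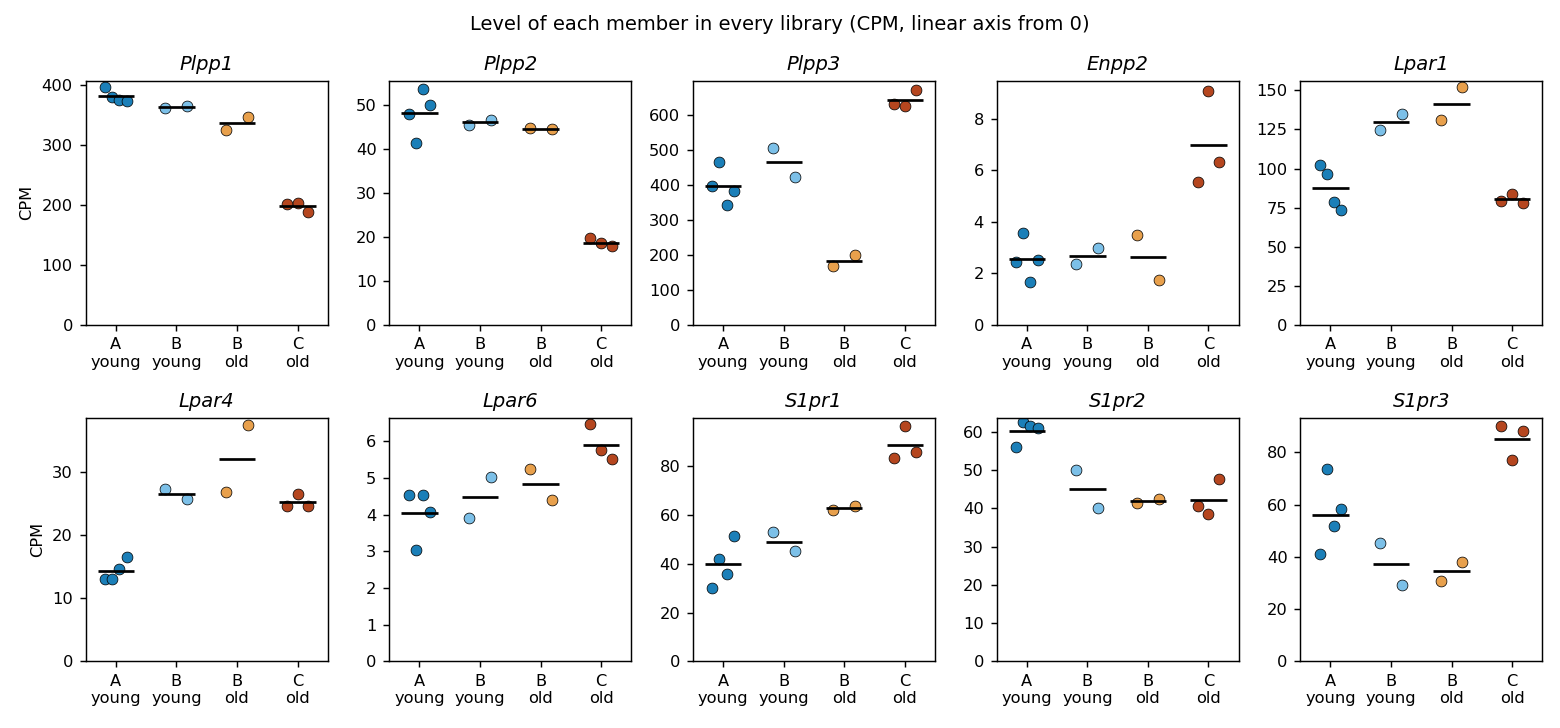
Level of each of the 10 members in every library, as TMM-scaled CPM on a linear axis from 0, by group (A young, n = 4; B young, n = 2; B old, n = 2; C old, n = 3); points are libraries and bars are group means. Plpp3 sits at 168 and 200 CPM in B old and between 627 and 673 CPM in C old, whereas Plpp1 and Plpp2 are lowest in C old.

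Plpp1 (ENSMUSG00000021759, chromosome 13, 112800792 to 112867894, plus strand) encodes a broadly expressed member of the family. Its level was 395, 380, 375 and 373 CPM in A young, 361 and 364 CPM in B young, 325 and 346 CPM in B old, and 201, 202 and 188 CPM in C old. Plpp2 (ENSMUSG00000052151, chromosome 10, 79526430 to 79533796, minus strand) was lower, at 47.9, 41.4, 53.7 and 50.03 CPM in A young, 45.5 and 46.7 CPM in B young, 44.8 and 44.5 CPM in B old, and 19.7, 18.6 and 17.8 CPM in C old. Both genes were lowest in the 3 libraries of C old, the group in which Plpp3 was highest. Between ages in batch B, Plpp1 differed by -0.11 (SE 0.10) and Plpp2 by -0.05 (SE 0.12) on the log2 scale. The 452 bases of exons that Plpp1 shares with Mtrex on the opposite strand cannot be assigned to either gene if strand was not used in counting, which is not stated.

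To compare genes, levels were divided by the longest transcript in kilobases, although the transcripts in use are not known. S1pr2 has 4 transcripts, the longest of 6394 bases and their mean 2194.8, and its level per kb would be higher with the mean. Plpp1 had the highest level of all members in A young (238 ± 6.38 CPM per kb, SD, n = 4), B young (227 ± 1.43, n = 2) and B old (209.9 ± 9.36, n = 2). Plpp3 was second in these groups, with 126 ± 16.4, 147 ± 18.6 and 58.2 ± 7.02 CPM per kb. In C old the order was turned, with 204 ± 7.92 CPM per kb for Plpp3 and 123 ± 4.96 for Plpp1 (n = 3). The ranges of Plpp1 and Plpp3 did not overlap in any of the 4 groups. The share of Plpp3 in the summed level of the 3 phosphatases was accordingly 28.9% to 36.0% in A young, 38.8% and 34.4% in B young, 18.8% and 20.6% in B old, and 59.0% to 62.4% in C old. Summed over the 3 genes, the level was 375 to 410.2 CPM per kb in A young, 414 and 390.1 in B young, 284 and 307 in B old, and 336 to 341 in C old. With TMM factors, both old groups thus lay below all young libraries, but not through the same genes. The place of C old depends on these factors, as with scaling by total counts C old would lie above A young. The sum holds Plpp3, which was selected on its difference in batch B, so that the place of B old is a description only. In C old, Plpp3 was at its highest and Plpp1 and Plpp2 were at their lowest.

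**Figure D2:**
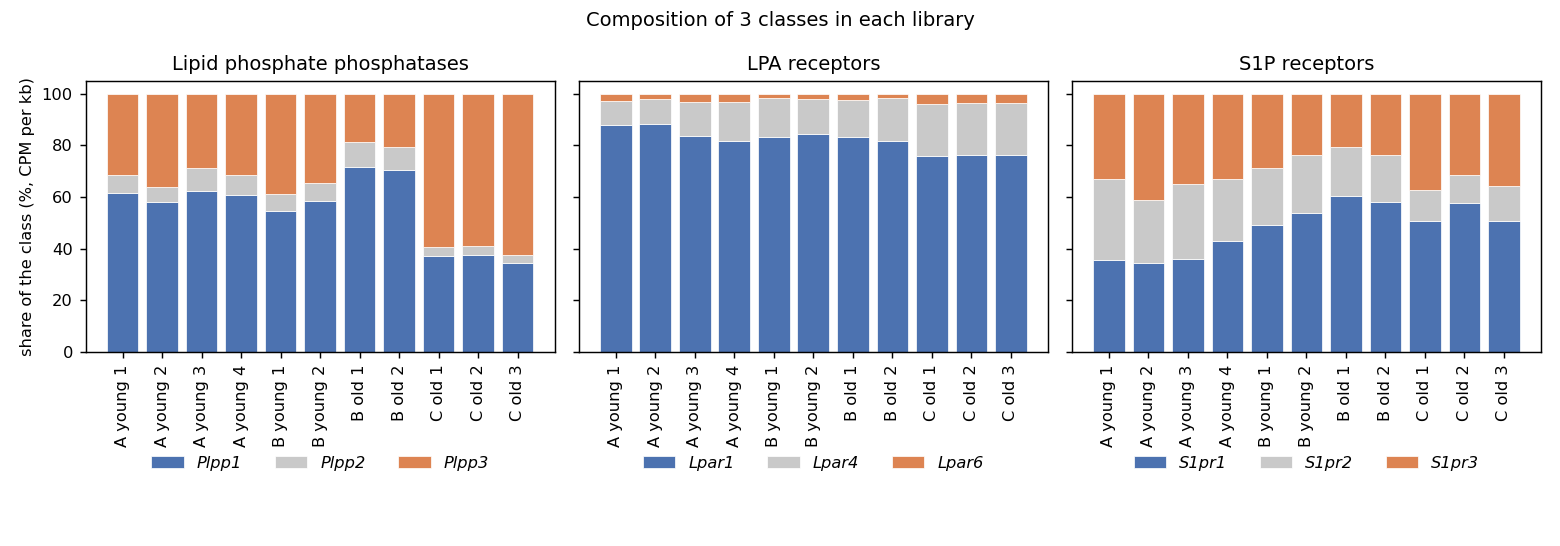
Share of each gene in the summed level (CPM per kb of longest transcript) of the 3 lipid phosphatases, the 3 LPA receptors and the 3 S1P receptors, as stacked bars to 100% for each of the 11 libraries. Plpp3 makes up 18.8% and 20.6% of the phosphatases in B old and 59.0% to 62.4% in C old, while Lpar1 makes up between 76.1% and 88.2% of these 3 LPA receptors in every library.

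Enpp2 (ENSMUSG00000022425, chromosome 15, 54838901 to 54952892, minus strand) encodes autotaxin, which produces LPA from lysophosphatidylcholine. It was among the least expressed members, at 2.44, 3.55, 1.65 and 2.52 CPM in A young, 2.34 and 2.99 CPM in B young, 3.50 and 1.74 CPM in B old, and 5.53, 9.10 and 6.31 CPM in C old. The 3 libraries of C old were above the 8 others, which overlapped each other. These values rest on 20 to 139 counts per library, and differences such as the -0.02 (SE 0.38, log2 scale) between ages in batch B were not well determined. Enpp2 shares 345 bases of exons with the non-coding gene Gm26684 on the opposite strand.

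Among the LPA receptors, Lpar1 (ENSMUSG00000038668, chromosome 4, 58435255 to 58553898, minus strand), which couples to several classes of G protein, had the highest level in each library. It was 102, 96.8, 78.3 and 73.3 CPM in A young, 125 and 135 CPM in B young, 131 and 152 CPM in B old, and 79.0, 83.4 and 78.2 CPM in C old. The 4 libraries of batch B were above the 7 others, and the 2 ages overlapped within the batch (log2 fold change 0.12, SE 0.14). Lpar4 (ENSMUSG00000049929, chromosome X, 106920625 to 106933900, plus strand), a receptor of the P2Y-like branch, was 13.0, 13.1, 14.7 and 16.5 CPM in A young, 27.2 and 25.7 CPM in B young, 26.9 and 37.4 CPM in B old, and 24.7, 26.6 and 24.6 CPM in C old. A young was thus below all other groups, and old and young cells of batch B overlapped (0.28, SE 0.16). Lpar6 (ENSMUSG00000033446, chromosome 14, 73237895 to 73243294, plus strand), of the same branch, was between 3.04 and 4.54 CPM in A young, 3.91 and 5.04 CPM in B young, 5.25 and 4.41 CPM in B old, and between 5.51 and 6.47 CPM in C old. It lies inside Rb1 on the opposite strand, with 408 bases of exons in common. It rests on 36 to 110 counts per library, and its ages in batch B overlapped too (0.12, SE 0.24).

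Among the S1P receptors, S1pr1 (ENSMUSG00000045092, chromosome 3, 115710433 to 115715072, minus strand), which signals through the inhibitory G protein, was 30.0, 42.05, 36.0 and 51.5 CPM in A young, 53.0 and 45.1 CPM in B young, 62.0 and 63.6 CPM in B old, and 83.6, 96.6 and 85.9 CPM in C old. Every old library was above every young library, and the difference in batch B was 0.36 (SE 0.18, log2 scale). S1pr1 is known as a gene of endothelial cells, whose 9 markers in the table summed to 4.82 to 7.51 CPM in A young, 8.02 and 7.83 in B young, 9.16 and 9.35 in B old, and 7.53 to 13.4 CPM in C old, below the level of S1pr1 itself in each library; the part of these markers in the result was not tested. S1pr2 (ENSMUSG00000043895, chromosome 9, 20962361 to 20976781, minus strand), which couples to several classes of G protein, was 56.1, 62.5, 61.6 and 60.9 CPM in A young, 50.01 and 40.01 CPM in B young, 41.4 and 42.4 CPM in B old, and 40.7, 38.5 and 47.6 CPM in C old. Here A young was above all other libraries, while the 3 other groups overlapped. S1pr3 (ENSMUSG00000067586, chromosome 13, 51408639 to 51422797, plus strand), which also couples to the phospholipase C pathway, was 40.9, 73.6, 51.7 and 58.5 CPM in A young, 45.1 and 29.1 CPM in B young, 30.8 and 38.1 CPM in B old, and 90.1, 77.1 and 88.2 CPM in C old. C old was above all other libraries. The differences of S1pr2 and S1pr3 between ages in batch B were -0.11 (SE 0.13) and -0.11 (SE 0.23).

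The composition of the receptors also varied by group. Lpar1 made up 81.7% to 88.2% of the summed level per kb of Lpar1, Lpar4 and Lpar6 in A young and 76.1% to 76.4% in C old, and Lpar4 9.39% to 15.4% and 19.8% to 20.3%. These shares hold no correction for transcript length and GC content. With it, Lpar4 and Lpar1 differed by -0.03 and -0.28 (log2 scale) in C old against A young. The LPA receptor sum leaves out the other LPA receptors, of which Lpar2 was at 1.57 to 4.73 CPM over the 11 libraries. S1pr1 made up 34.5% to 42.8% of the S1P receptor level in A young, 49.2% and 53.7% in B young, 60.3% and 57.9% in B old, and 50.8% to 57.7% in C old, and the share of S1pr2 was 24.1% to 31.5% in A young and 10.9% to 13.4% in C old. These shares, and the order below, rest on the longest transcript of S1pr2 (6394 bases). With its mean transcript length of 2194.8 bases, S1pr2 would come before S1pr1 in A young and B young. Ordered by level per kb, the phosphatases Plpp1 and Plpp3 were followed by Plpp2, Lpar1, S1pr1, S1pr3, S1pr2 and Lpar4 in A young. Of these neighbours, the ranges of Plpp2 and Lpar1, of S1pr1 and S1pr3, and of S1pr3 and S1pr2 overlapped. In batch B, Lpar1 came before Plpp2 at both ages and their ranges were separate, whereas S1pr3, S1pr2 and Lpar4 followed below S1pr1, with ranges that overlapped between neighbours. In C old, S1pr1 came next after Plpp3 and Plpp1, before Lpar1, S1pr3 and Plpp2, and the overlap was between S1pr2 and Lpar4. The members at the lower end were Enpp2 and Lpar6, which overlapped in A young, B young and B old and were separate in C old, at 2.25 ± 0.606 and 1.10 ± 0.0925 CPM per kb (SD, n = 3).

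Within batch B, the age comparison called 360 of 16132 genes (2.23%; edgeR, adjusted p under 0.05), 112 higher in old cells (0.694%) and 248 lower (1.54%). Of the 10 members, which all passed the filter on low counts, 1 was lower (Plpp3, on which the selection rested) and none was higher. Nothing is read from this count. The CPM of old and young libraries in batch B did not overlap for 4 members, namely Plpp1, Plpp2, Plpp3 and S1pr1, at a background of 39.7% of all genes tested. The median log2 fold change of the members was -0.03, beside 0.00 over all genes. Beside Plpp3, the sort marker Pdgfra was lower in B old, at 109 and 128 CPM against 236 and 194 CPM in B young (log2 fold change -0.86, SE 0.15), and its part in the result was not tested. Of the 10 MSC markers, 2 were called lower in B old (Pdgfra and Nt5e) and none was higher. The haematopoietic markers had a median log2 fold change of 0.69 in this comparison, with 0 of 15 called and 7 at an unadjusted p under 0.05 (edgeR).

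**Figure D3:**
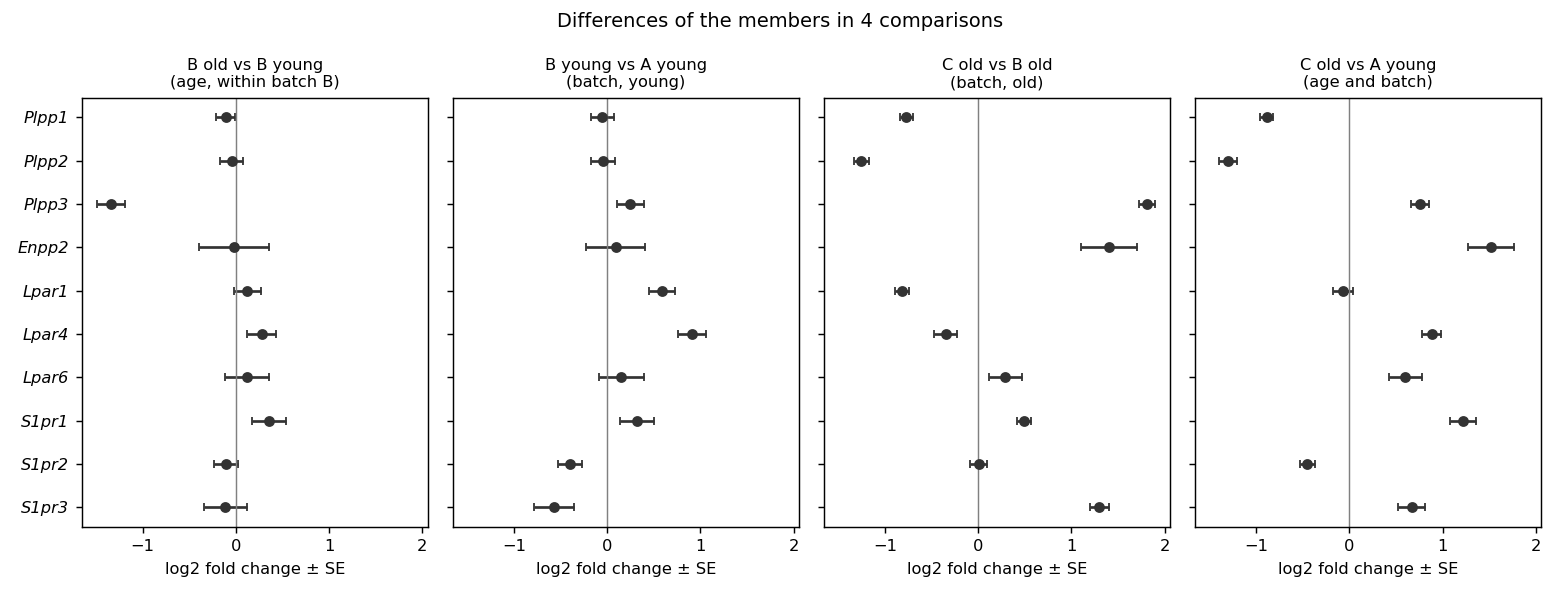
Log2 fold change of each member with its standard error in the 4 comparisons, from edgeR; points to the right of 0 are higher in the group named first. Plpp3 is at -1.34 between ages in batch B and at 1.80 between C old and B old, and in the age comparison the 9 other members lie between -0.11 and 0.36.

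The batches were then compared at a fixed age. In young cells, B young was set against A young. Here 2686 of 14840 genes were called (18.1%), 1393 higher in B young (9.39%) and 1293 lower (8.71%). Of the 10 members, 2 were higher and 1 was lower. Lpar4 was higher by 0.91 on the log2 scale (SE 0.15, adjusted p = 0.0027 in edgeR), and it was called in each alternative. Lpar1 was higher by 0.59 (SE 0.14, adjusted p = 0.016 in edgeR), but the adjusted p was 0.055 without replicate 3 of A young and 0.11 without replicate 2 of B young. S1pr2 was lower by a log2 fold change of -0.40 (SE 0.13, adjusted p = 0.045 in edgeR), and this call was lost without replicate 2 (adjusted p = 0.098), replicate 3 (0.12) or replicate 4 (0.11) of A young, and without replicate 2 of B young (0.29). It was also lost with scaling by total counts (0.081) and with a correction for transcript length and GC content (0.42). With replicate number as a block, although these numbers did not pair the libraries, neither Lpar1 (adjusted p = 0.39 in edgeR) nor S1pr2 (0.42) was called. S1pr3 did not pass the threshold (-0.57, SE 0.22, adjusted p = 0.083), although it did without replicate 1 of A young (0.024) or replicate 1 of B young (0.025), with DESeq2 (0.041), without a filter (0.0022) and with all libraries in 1 fit (0.040). Plpp1, Plpp2, Enpp2, Lpar6 and S1pr1 differed by -0.05 to 0.32, with adjusted p between 0.23 and 0.87. Plpp3 differed by 0.25 (SE 0.15) and is given without a test, since the libraries of B young were part of its selection. In the same comparison, 6 of 15 haematopoietic markers were lower in B young, and their part in the result was not tested.

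In old cells, C old was set against B old, and the batches differed for most genes, as 10133 of 15651 were called (64.7%), 5029 higher in C old (32.1%) and 5104 lower (32.6%). Of the 10 members, 4 were higher and 4 were lower. The count of higher members includes Plpp3, on whose difference the selection rested, and nothing is read from it. Plpp2 was lower by a log2 fold change of -1.26 (SE 0.08, adjusted p = 9.6e-08 in edgeR), Lpar1 by -0.82 (SE 0.07, adjusted p = 1.5e-06) and Plpp1 by -0.77 (SE 0.07, adjusted p = 8.8e-07). S1pr3 was higher by 1.30 (SE 0.10, adjusted p = 3.9e-07 in edgeR), Enpp2 by 1.41 (SE 0.30, adjusted p = 0.0014) and S1pr1 by 0.49 (SE 0.08, adjusted p = 0.00013). Plpp3 was higher by 1.80 (SE 0.09), which is 3.49 times the level of B old, and this is given without a test because the B old libraries were used for its selection. Lpar4 was lower by a log2 fold change of -0.35 (SE 0.12, adjusted p = 0.024 in edgeR), which was lost without replicate 2 of B old (-0.10, adjusted p = 0.44), replicate 1 of C old (-0.32, 0.090) or replicate 3 of C old (-0.33, 0.087), and with scaling by total counts (-0.16, 0.28). Lpar6 (0.29, SE 0.18) and S1pr2 (0.01, SE 0.09) did not pass the threshold (adjusted p = 0.17 and 0.95), although Lpar6 had an adjusted p of 0.031 with scaling by total counts, and S1pr2 was lower in C old (-0.42, adjusted p = 0.0010) after the length and GC correction.

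C old and A young differ in both batch and age, which cannot be told apart, and 9585 of 15021 genes were called (63.8%), 4800 higher in C old (32.0%) and 4785 lower (31.9%). Of the 10 members, 6 were higher, again with Plpp3 among them, and 3 were lower, and nothing is read from this count. Plpp3 was higher by 0.76 (SE 0.09), which is given without a test, as this difference was known when the genes were chosen. S1pr1 was higher by 1.22 (SE 0.14, adjusted p = 9.2e-06 in edgeR), Enpp2 by 1.52 (SE 0.24, adjusted p = 0.00014) and S1pr3 by 0.67 (SE 0.15, adjusted p = 0.0016). Lpar4 (0.88, SE 0.10, adjusted p = 1.1e-05 in edgeR) and Lpar6 (0.60, SE 0.17, adjusted p = 0.0090) were higher as well, but after correction for transcript length and GC content their differences were -0.03 and -0.15 and no longer called, and Lpar6 had an adjusted p of 0.053 without replicate 1 of C old. Plpp2 (-1.31, SE 0.10, adjusted p = 2.5e-07 in edgeR), Plpp1 (-0.89, SE 0.07, adjusted p = 2.4e-07) and S1pr2 (-0.45, SE 0.08, adjusted p = 0.00046) were lower, and S1pr2 had an adjusted p of 0.12 when libraries were scaled by their total counts. Lpar1 differed by -0.07 (SE 0.10, adjusted p = 0.58), by 0.23 with scaling by total counts (0.061), and by -0.28 after the length and GC correction (0.026).

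These comparisons share libraries with each other, so that their values are set side by side and not counted as repeats. Plpp1 and Plpp2 were lower in C old than in either B old or A young, and Enpp2, S1pr1 and S1pr3 were higher than in either. All 15 haematopoietic markers were lower in C old in both comparisons, with median log2 fold changes of -2.83 against B old and -3.01 against A young, for example Lyz2 at 61.5 to 73.9 CPM in C old and 208 to 582 CPM in all other libraries. The part of these markers in the differences of the members was not tested. With scaling by total counts in place of TMM, the median over all genes shifted from 0.02 to 0.22 (log2 scale) for C old against B old and from 0.02 to 0.31 for C old against A young. The share of called genes that were higher in C old moved from 49.6% to 62.9% and from 50.1% to 72.5%. In the age comparison it moved from 31.1% to 44.8%, and between the young groups from 51.9% to 66.4%. The directions of Plpp3, Enpp2, S1pr1 and S1pr3 in C old against either group, and of Plpp1 and Plpp2, were the same under both scalings.

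The genes whose pattern over the 11 libraries was most like that of Plpp3 were Pdgfra (Pearson r = 0.99 of log2 CPM), Prrx1 (0.97), Myoc (0.97), Wnk4 (0.97) and Fam13c (0.97). The points share batches and groups, and r is a description. Pdgfra encodes CD140a, the receptor used in the sort, and Prrx1 encodes a transcription factor of limb mesenchyme. Pdgfra was 182, 227, 164 and 184 CPM in A young, 236 and 194 CPM in B young, 109 and 128 CPM in B old, and 277, 268 and 289 CPM in C old. Its lowest and highest groups were those of Plpp3, which goes with its choice by the highest r over the same libraries. Prrx1 was between 380 and 449 CPM in A young, 451 and 399.7 CPM in B young, 290.4 and 335 CPM in B old, and between 513 and 533 CPM in C old. Myoc, at 0 and 0.267 CPM in B old and 3.79 to 4.47 CPM in C old, rests on few counts. Among the other members, r with Plpp3 over the same libraries was highest for S1pr3 (0.74) and Enpp2 (0.61) and lowest for Plpp2 (-0.65), Lpar1 (-0.61) and Plpp1 (-0.56).

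**Figure D4:**
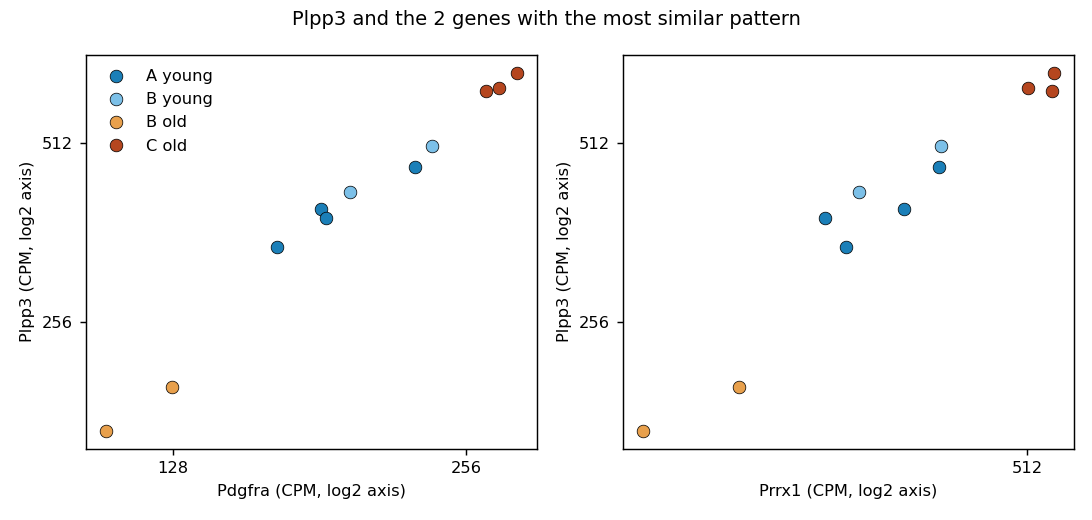
Plpp3 against Pdgfra (left) and Prrx1 (right) in each of the 11 libraries, as CPM on log2 axes, with points coloured by group. The 2 libraries of B old (168 and 200 CPM of Plpp3, 109 and 128 CPM of Pdgfra) form the lower end and the 3 libraries of C old the upper end.

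The other receptors for LPA and S1P were at low levels. Lpar2 was between 1.57 and 4.73 CPM (23 to 58 counts) over the 11 libraries and was not called in any comparison. Lpar3 had between 0 and 14 counts and Lpar5 between 1 and 16. Lpar3 was called higher in C old (6, 9 and 8 counts) than in B old (3 and 0 counts), and Lpar5 lower in C old (1, 2 and 1 counts) than in A young (7, 8, 16 and 8 counts), but no fold is given at such counts. P2ry10 had at most 9 counts, S1pr4 at most 2 and S1pr5 at most 1. A count of 3 corresponds to 0.148 to 0.251 CPM of the total counts, before TMM scaling. Below it, a receptor was not detectable at this depth.

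Further genes of the pathway were grouped in 5 lists, of which none had a called gene between ages in batch B (0 of 73 genes tested, edgeR, with 13 at an unadjusted p under 0.05). At the background of 2.23%, this count does not set the lists apart. These lists were other lipid phosphatases (8 of 11 tested in that comparison), LPA metabolism (17 of 18), S1P metabolism (14 of 16), G proteins and their effectors (20 of 20) and targets and cofactors of YAP and SRF (14 of 15). Their median log2 fold changes lay between -0.10 and 0.05, beside 0.00 over all genes. Between the young groups, 6 of 70 tested genes of these lists were higher in B young and 9 were lower, which is 21.4% beside 18.1% of all genes. Sphk1, which makes S1P, was higher (0.99, SE 0.16, adjusted p = 0.0024 in edgeR), as was Rgs5, which limits G protein signalling (1.91, SE 0.29, adjusted p = 0.0021). Pld2, a phospholipase D, was lower (-0.69, SE 0.13, adjusted p = 0.0052 in edgeR).

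Of 73 tested genes of the 5 lists, 26 were higher in C old than in B old and 25 were lower. This is 69.9% beside 64.7% of all genes. In C old, lipid phosphatases other than the members moved in both directions, with 3 higher and 2 lower than in B old. Sgpp1, the S1P phosphatase of the endoplasmic reticulum, was lower (56.0 against 88.0 CPM, log2 fold change -0.66, SE 0.06, adjusted p = 2.4e-06 in edgeR). Plppr5, a relative of the phosphatases without known activity towards these lipids, was at 2.18 to 3.60 CPM in C old and at most 0.487 CPM in all other libraries. LPA metabolism had 5 genes higher and 4 lower, among them Agpat4 (-0.99, SE 0.09, adjusted p = 1.7e-06 in edgeR) and Agpat5 (-0.84, SE 0.09, adjusted p = 8.2e-06), which use LPA to form phosphatidic acid, and Pld2, which was higher (1.06, SE 0.11, adjusted p = 5.6e-06). S1P metabolism had 5 higher and 8 lower, the latter including the desaturase Degs1 of ceramide synthesis (-0.87, SE 0.07, adjusted p = 3.2e-07 in edgeR) and the ceramidases Acer3 (-1.40, SE 0.08, adjusted p = 5.6e-08 in edgeR) and Asah1 (-0.61, SE 0.06, adjusted p = 3.2e-06). Downstream, 5 genes of the list of G proteins and effectors were higher and 9 were lower. Gnai3, an inhibitory G protein subunit, was lower (-0.86, SE 0.06, adjusted p = 2.5e-07 in edgeR). Rhoa fell from 556 to 286 CPM (log2 fold change -0.96, SE 0.06, adjusted p = 8.6e-08 in edgeR), while Rock2, a kinase activated by RhoA, rose from 181 to 295 CPM (0.70, SE 0.08, adjusted p = 9.3e-06).

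Of the YAP and SRF list, whose genes respond to signals to the actin cytoskeleton, 8 were higher and 2 were lower in C old than in B old. Ccn1 rose from 610.0 to 1746 CPM (1.51, SE 0.08, adjusted p = 2.0e-08 in edgeR) and Amotl2 from 414 to 725 CPM (0.81, SE 0.07, adjusted p = 9.7e-07), and Srf itself was higher by 0.60 (SE 0.07, adjusted p = 1.4e-05). The median of the list was 0.36, beside 0.02 over all genes. Against A young, 6 of the list were higher and 4 were lower in C old, with a median of 0.11. At a background of 64.7% and 63.8% of all genes called, these counts say little about the lists themselves.

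**Figure D5:**
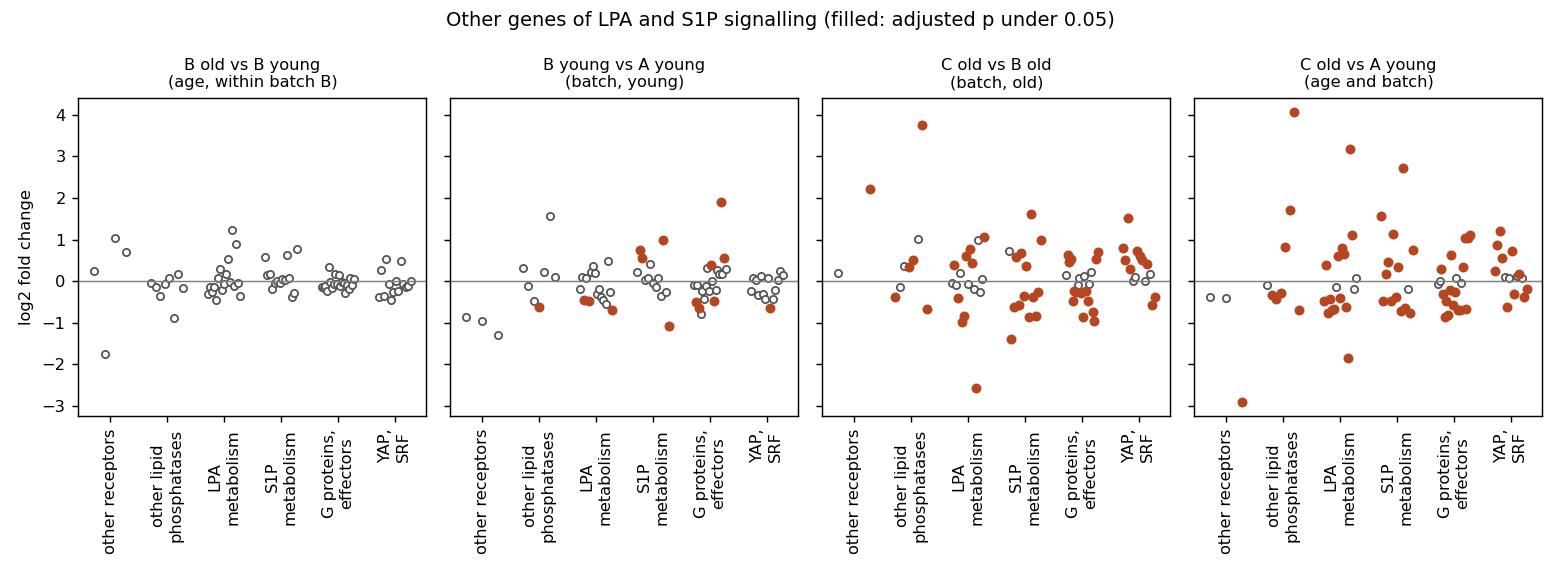
Log2 fold change of the tested genes of 6 lists around LPA and S1P signalling in the 4 comparisons; each point is a gene, and filled points have an edgeR adjusted p under 0.05. No point is filled in the comparison of ages in batch B, in which 2.23% of all genes were called, whereas in C old filled points lie on both sides of 0 in most lists.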

How the data were processed

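The authors deposited 1 table of raw counts per Ensembl gene and library, in whole numbers and without normalisation. Per the study's methods, which describe an oxygen comparison, single-end reads were processed with zUMIs, using STAR and featureCounts on GRCm38. Use of strand or molecular identifiers in counting is not given in the sources used here. Per the labels, the RNA was polyadenylated. Libraries were grouped by age and batch from the sample labels.

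Counts were tested in edgeR 4.0.16 (R 4.3.3) by quasi-likelihood, with filterByExpr at a minimum count of 5, TMM factors and Benjamini-Hochberg adjustment over all genes tested (threshold 0.05, two-sided). The age comparison used all 11 libraries with batch as a covariate, the others only the libraries compared. Alternatives were limma-trend (limma 3.58.1, the study's method), DESeq2 1.42.0, no filter or a minimum count of 10, total counts or RLE factors for scaling, a correction for transcript length and GC content, a replicate block, other sets of libraries and leaving out each library. The fit was tested on simulated data with 200 changed genes. It recovered between 72.5% (age comparison) and 89.5% (C old against A young) of 2-fold changes. False genes made up 3.80% of calls between the young groups. They exceeded the threshold of 0.05 in C old, with 5.99% against B old and 8.21% against A young.

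Of 28222 genes, 28179 matched GENCODE M21 and 28143 had a length. Coordinates are 1-based on GRCm38. Depth was 11969336 to 20315934 counts per library, and a floor of 3 counts is 0.148 to 0.251 CPM of the total counts, before TMM scaling. Such limits cover counting error only. Replicates differed beyond sampling noise (chi-square per gene of 3.07 to 48.5 within groups) and were kept as separate libraries. The members and lists were chosen with earlier results of these data known. Named are all members, all other receptors, at most 3 called genes per list and comparison by smallest adjusted p, and the 5 genes with the highest r with Plpp3 (log2 CPM, prior count 2; no Gm, Rik or pseudogene names), with Ly6a, Pecam1, Cdh5, Egfl7 and Col1a1 added as checks after their values were seen.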

Additional observations from a re-analysis of the deposited data

How the results depend on the processing

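Between ages in batch B, 360 genes were called by edgeR, 640 by DESeq2, 1094 without a filter, 123 in batch B alone, 2641 without a batch term, and 84 (without replicate 1 of B old) to 2007 (without replicate 2 of B young) when each library was left out; the number was also 203 without replicate 2 of B old, 206 without replicate 1 of B young and 578 without replicate 1 of A young. The cause was not tested. Of the members, 2 were called without a batch term (Plpp1 and S1pr1), in place of 1 (Plpp3, on which the selection rested), and Plpp3 was then at 0.15, Enpp2 at 1.04 and S1pr3 at 0.40 on the log2 scale. Between the young groups, 2686 genes were called, 729 with a replicate block, 4171 with all libraries in 1 fit, and 511 (without replicate 2 of B young) to 4031 (without replicate 1 of B young) when each library was left out, with 1293 without replicate 3 and 1726 without replicate 4 of A young. Members called there were 3, with 1 (Lpar4) under the block and 1 to 4 when libraries were left out. Replicate numbers did not pair the libraries (correlation of deviations 0.04 between B young and B old, and -0.11 and -0.08 between A young and B young), and the block changed no other count of calls by more than 1.5 times.

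Some values changed sign under some settings, and the cause was not tested. Many of them were near 0, but Lpar4 and Lpar6 in C old against A young were called as higher in the main fit. With scaling by total counts, Plpp2 and Enpp2 were at 0.017 and 0.043 between ages in batch B, Plpp1 and Plpp2 at 0.029 and 0.034 between the young groups, and Lpar1 at 0.23 in C old against A young. With the length and GC correction, S1pr2 was at 0.010 between ages, Plpp2, Enpp2 and Lpar6 at 0.057, -0.056 and -0.21 between the young groups, S1pr2 at -0.42 in C old against B old (then called), and Lpar4 and Lpar6 at -0.034 and -0.15 in C old against A young. With the replicate block, Plpp2 and Enpp2 were at 0.071 and -0.13 between the young groups and S1pr2 at -0.084 between the old groups. Leaving out each library gave ranges between ages of -0.60 to 0.40 for Enpp2, -0.061 to 0.30 for Lpar6, -0.26 to 0.066 for S1pr2 and -0.39 to 0.24 for S1pr3. Between the young groups it gave -0.11 to 0.0077 for Plpp2, -0.089 to 0.28 for Enpp2 and -0.035 to 0.33 for Lpar6. It gave -0.078 to 0.079 for S1pr2 between the old groups and -0.14 to 0.0054 for Lpar1 in C old against A young. Enpp2 and Lpar6 rest on the fewest counts of the members, and the age comparison rests on 2 libraries per age in batch B.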
